A study of Mus musculus with 64 samples.

Results

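Genes of chromosome segregation and cell division were followed in retinal microglia as inflammation developed after viral vector delivery, at 3 ages. The 42 mitosis genes were chosen by symbol from the 25239 genes of the batch-corrected count table, and all 42 have a row there. Every mouse was a Cx3cr1CreER:R26-tdTomato +/- reporter given tamoxifen eye drops, in which cells that express the fractalkine receptor Cx3cr1 turn on the red fluorescent protein tdTomato. Cx3cr1 is also used by other mononuclear phagocytes, so the reporter alone does not define a microglial cell. Each library holds 600 bright tdTomato cells sorted from 1 retina. Mice were 3, 9 or 18 months old and of both sexes. Naive retinas had no injection. D12 and D28 retinas were taken 12 or 28 days after AAV2 without a transgene was injected into the vitreous at 10000000000 genome copies per eye. Per the methods, this vector carried io2, an oligonucleotide sequence that inhibits TLR9, a sensor of viral DNA. The naive groups held 7, 5 and 7 libraries at 3, 9 and 18 months, the D12 groups 8, 7 and 7, and the D28 groups 7 each, with 2 to 4 libraries per sex. No sequenced group had a sham injection, so that in these libraries the vector and the injection cannot be told apart.

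Cells that divide switch on one program of genes from S phase to mitosis. The kinase Cdk1 with cyclins A and B drives entry into mitosis. Kinetochores are built on centromeres by Cenpa and the Ndc80 complex, motor proteins of the kinesin family shape the spindle, and the checkpoint proteins Bub1, Bub1b, Ttk and Mad2l1 hold the cell until every chromosome is attached. Cdc20 and Ube2c then mark cyclins for destruction, and Prc1, Racgap1, Ect2 and Anln guide the cleavage of the cell. Microglia of the adult retina divide rarely at rest and are known to proliferate after injury or inflammation. In bulk RNA, fewer dividing cells and less RNA per dividing cell cannot be told apart.

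Many of these genes carry a cell cycle homology region (CHR) near the transcription start, a short element known to be bound by the DREAM and MuvB complexes, often beside CCAAT boxes known to be bound by NF-Y. RefSeq promoters of the build GRCm38.p6, 300 bases each from 250 before to 50 after the start, were found for 35 of the 42 genes. A CHR, searched as TTTGAA or TTCGAA on both strands, was present in 29 of the 35 (82.9%), against 21.7% of the promoters of 27025 genes. A CCAAT box, searched as CCAAT on both strands, was present in 26 (74.3%), against 41.1% of all. Both were present in 24 (68.6%), against 8.61% of all, and the 2 motifs were searched separately, neither containing the other. In 27 of the 29 the nearest CHR began within 40 bases of the start. A match of letters is a description and no evidence of binding. Nuf2, Nusap1, Mad2l1 and Birc5 held neither motif. Promoters of 4 members with a CHR are shown because they differ in number and place of the matches: Top2a holds the most of the 4, Ccnb2 and Cdk1 have a CHR close to the start behind CCAAT boxes, and Kif2c, the only member that passed at D12 at all 3 ages below, has a single CHR away from the start and no CCAAT box. All 4 lie on the minus strand, at chr11:99024140-99024439 (Top2a), chr9:70421505-70421804 (Ccnb2), chr10:69352863-69353162 (Cdk1) and chr4:117178723-117179022 (Kif2c). The Kif2c window lies inside the gene, whose annotated start on that strand is at 117182624, upstream of the window. The matches given for Kif2c describe this internal window only, and the region before 117182624 was not searched. Capitals mark the CHR and CCAAT matches on either strand.
Top2a promoter: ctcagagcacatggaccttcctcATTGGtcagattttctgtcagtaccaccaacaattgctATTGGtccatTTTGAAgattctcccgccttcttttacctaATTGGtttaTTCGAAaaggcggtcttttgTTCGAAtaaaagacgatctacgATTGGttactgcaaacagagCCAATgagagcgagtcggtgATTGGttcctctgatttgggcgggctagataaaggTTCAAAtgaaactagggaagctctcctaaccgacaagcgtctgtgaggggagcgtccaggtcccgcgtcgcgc
Ccnb2 promoter: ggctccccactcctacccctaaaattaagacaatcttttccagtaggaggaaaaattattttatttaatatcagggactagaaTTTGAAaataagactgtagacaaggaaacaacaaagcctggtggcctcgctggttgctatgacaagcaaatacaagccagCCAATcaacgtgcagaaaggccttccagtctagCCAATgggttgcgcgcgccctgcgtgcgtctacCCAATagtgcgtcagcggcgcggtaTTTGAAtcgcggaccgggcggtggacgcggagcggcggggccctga
Cdk1 promoter: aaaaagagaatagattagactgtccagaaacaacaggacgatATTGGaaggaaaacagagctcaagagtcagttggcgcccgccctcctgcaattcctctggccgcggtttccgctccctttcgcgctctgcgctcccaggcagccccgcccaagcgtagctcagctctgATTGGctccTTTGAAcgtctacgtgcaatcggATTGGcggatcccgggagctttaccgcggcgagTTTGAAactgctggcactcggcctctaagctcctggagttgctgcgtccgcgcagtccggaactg
Kif2c promoter: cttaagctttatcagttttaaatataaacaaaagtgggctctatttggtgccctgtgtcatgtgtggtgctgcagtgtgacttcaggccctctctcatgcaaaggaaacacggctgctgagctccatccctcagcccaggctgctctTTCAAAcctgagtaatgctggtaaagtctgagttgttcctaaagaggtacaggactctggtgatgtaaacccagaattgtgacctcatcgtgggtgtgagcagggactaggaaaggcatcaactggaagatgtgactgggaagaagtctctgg

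Of 62 libraries used, 27 came from the first and 35 from the second of 2 collection days. Totals of corrected counts ran from 1468478 to 9836173, so that 3 counts, used here as the floor of detection in a library, were worth 0.305 to 2.04 counts per 1000000 counts (CPM). No pair of libraries within a group was identical, and no library went against its labelled sex. One library titled 18-month male D28 replicate 4 has a second label that reads D12. It was placed by its title, and its score (defined below), 2.57, was the highest of its 18-month D28 group. A further 3 libraries stood apart among the D12 groups in their microglia markers. The 9-month male D12 replicate 2 and the 18-month female D12 replicates 1 and 2 had the highest summed microglia marker levels of their age at D12, at 32100, 38500 and 34300 CPM, against 12200 to 22800 CPM in the other 6 libraries at 9 months and 19500 to 21300 CPM in the other 5 at 18 months. The scores of these 3, at 0.45, 0.41 and 2.34, were also the lowest of their age at D12. Leaving out the 2 at 18 months together was a choice made after the data were seen. Results that rest on the 3 are given with and without them.

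Each library was given a score, the mean log2 CPM of the 42 genes with a prior count of 2. In naive retinas the score was 0.61 to 3.53 at 3 months (median 1.89), 0.08 to 2.47 at 9 months (median 1.93) and -0.08 to 3.01 at 18 months (median 1.08). At D12 it was 0.75 to 3.75 at 3 months (median 2.58), 0.45 to 5.46 at 9 months (median 5.20) and 0.41 to 5.86 at 18 months (median 4.93). At 9 and 18 months all D12 libraries but the 3 that stood apart lay above every naive library of their age, and at 3 months the groups overlapped. At D28 the score was 0.23 to 1.91 (median 0.73), 0.42 to 3.46 (median 0.70) and 0.23 to 2.57 (median 0.77). At 9-month D28, 2 of 7 libraries, at 3.01 and 3.46, lay above every naive library of that age. With the sexes weighted equally, D12 minus naive was 0.28 at 3 months, 3.05 at 9 months and 2.74 at 18 months. Within the first collection day alone it was 0.295, 3.25 and 3.03, and within the second 0.141, 3.37 and 2.90. For D28 minus naive the values were -1.10, -0.174 and -0.218. Within the first and second collection day, D28 minus naive at 3 months was -1.52 and -1.03 in females and -1.02 and -0.87 in males. At 9 months it was 0.65 and -0.83 in females and 1.25 and -0.41 in males. At 18 months it was 1.76 and -1.11 in females and 0.0 and -0.57 in males.

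**Figure D1:**
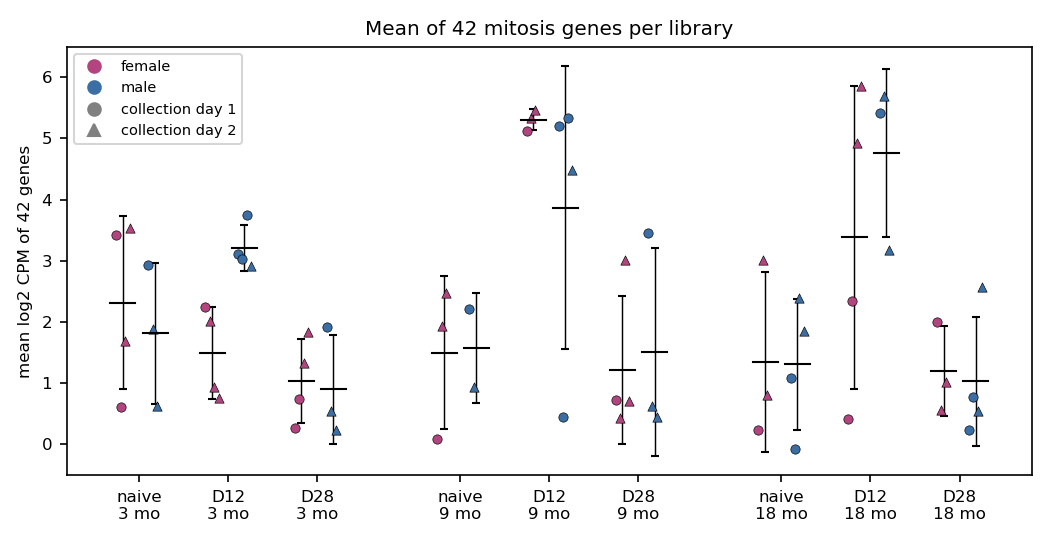
Mean log2 CPM of the 42 mitosis genes in each of the 62 libraries (vertical axis), by age and by naive, D12 and D28 (horizontal axis), with sexes marked. At 9 and 18 months the D12 medians are 5.20 and 4.93, and at 3 months 2.58; 3 libraries of the older D12 groups lie at 0.41, 0.45 and 2.34.

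The rise was broad across the set. In the median library 39 of the 42 genes were over 10 CPM at 9-month D12 and 37 at 18-month D12, against 7 and 3 in naive libraries of those ages, 14.5 at 3-month D12 and 2 to 3 at D28. The median gene had a median level of 36.2 CPM at 9-month D12 and 33.4 CPM at 18-month D12, and between 1.27 and 5.97 CPM in the other 7 combinations of age and day. The highest median level fell in 9-month D12 for 28 genes and in 18-month D12 for 13. The exception was Spc25, a kinetochore protein of the Ndc80 complex, whose highest median was in 3-month naive retinas. Per kilobase of exon, the highest median levels at 9-month D12 were those of Ccnb2 (48.3 CPM per kilobase), Birc5 (34.7) and Ube2c (24.4), and the lowest that of Kif4 (1.57).

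**Figure D2:**
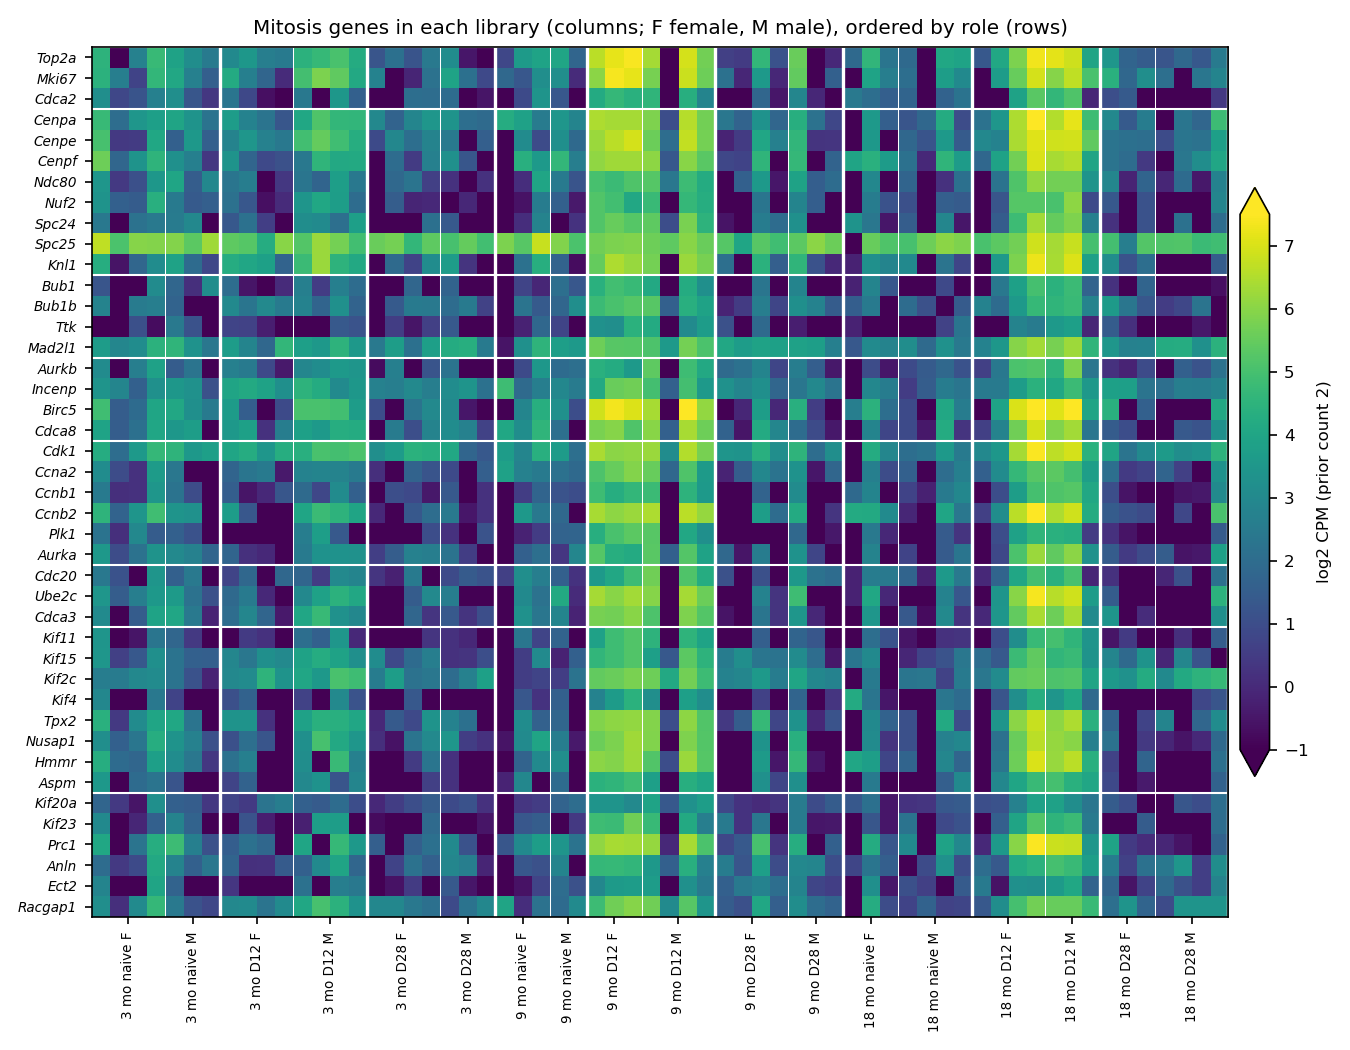
Log2 CPM (colour, prior count 2) of each of the 42 genes (rows, ordered by role) in each of the 62 libraries (columns, by age, day and sex). The D12 columns at 9 and 18 months are high across most rows, except in the 3 libraries that stood apart, and the Spc25 row is high in nearly every column.

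At 9 months D12 was compared with naive, both sexes weighted equally, by edgeR's quasi-likelihood test against a log2 fold change of 1 with Benjamini-Hochberg adjustment over all genes. Of the 42 mitosis genes, 11 rose and none fell, against 2.83% of all 12364 genes tested that rose. The median log2 fold change of the set was 3.24, and 41 of 42 values were positive. Against no change rather than a change of 1, 32 of the 42 passed, beside 8.68% of all genes that rose. In counts simulated for this design, 75.5% of genes with a log2 change of 3 were found. Those genes were drawn at random from all genes tested, so the share found among genes as low as the members was not measured.

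By role at 9 months, 3 of 8 spindle motors and spindle proteins rose. Here and below, a gene is said to rise at D12 only where it passed against a change of 1. Kif2c, a kinesin that takes microtubules apart at the centromere to correct wrong attachments, lay at 0, 1 and 1.2 CPM in naive females and 1 and 4.25 CPM in naive males. At D12 it lay at 17.2 to 54.3 CPM (median 46.8), with no overlap. Its log2 fold change of 4.84 ± 0.545 (SE) had an adjusted p of 9.14e-06. Tpx2, which activates the kinase Aurka on the spindle, rose by 4.45 ± 1.05 (adjusted p = 0.021), and Kif15, a kinesin that helps keep spindle poles apart, by 3.45 ± 0.831 (adjusted p = 0.0329).

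Mitotic kinases and cyclins gave 3 of 6 genes that rose at 9 months. Cdk1 lay at 6.81, 12.5 and 20.2 CPM in naive females and at 3.83 and 12.3 CPM in naive males, and at D12 at 65.2, 67.5 and 85.1 CPM in females and 8.34, 53.6, 75.0 and 91.4 CPM in males. Only the male library at 8.34 CPM, the one that stood apart, overlapped the naive range. The log2 fold change of Cdk1 was 2.63 ± 0.512 (adjusted p = 0.0125). Plk1, a kinase needed for spindle assembly, rose by 4.24 ± 0.95 (adjusted p = 0.018) from a naive median of 0.962 CPM to 19.6 CPM, and the cyclin Ccnb2 by 4.56 ± 1.22 (adjusted p = 0.0458) from 3.21 to 73.9 CPM.

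Kinetochore genes gave 3 of 8 that rose at 9 months. Spc24, a partner of Spc25, rose by 5.09 ± 1.20 (adjusted p = 0.0182). Cenpe, a kinetochore motor, rose by 3.98 ± 0.962 (adjusted p = 0.0275), and Cenpa, the histone variant that marks centromeres, by 2.61 ± 0.632 (adjusted p = 0.0499). Spc25 was the member with the largest p, with 33.7 to 110 CPM in naive libraries (median 56.3) and 41.2 to 63.4 CPM at D12 (median 50.4), a log2 difference of -0.13. The D12 libraries of Spc25 lay wholly inside the naive range. Its level per kilobase was 17.7 CPM in naive retinas and 15.8 CPM at D12.

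Of the other roles at 9 months, 1 of 3 chromosome structure genes rose, Mki67, a coat of mitotic chromosomes used as a marker of dividing cells (4.15 ± 1.06, adjusted p = 0.0367). Its companion Top2a, which untangles DNA before chromosomes part, lay at 1.29, 12.0 and 14.7 CPM in naive females, 2.98 and 15.7 CPM in naive males, and 0 to 170 CPM at D12 (median 97.2). It did not pass against a change of 1. Kif23, a motor of the central spindle, was the only one of 6 cytokinesis genes that passed against a change of 1 (4.58 ± 1.09, adjusted p = 0.022). Against no change all 6 passed, with log2 differences of 2.48 to 4.58. None of the 4 checkpoint genes, 4 passenger complex genes and 3 ubiquitin ligase genes passed against a change of 1, with median log2 differences of 3.20, 2.74 and 3.29. Against no change 4, 2 and 2 of them passed. Ube2c, the enzyme that starts ubiquitin chains on cyclins, lay at 0 to 17.5 CPM in naive libraries (median 4.09) and 0 to 82.0 CPM at D12 (median 63.4). Birc5, a passenger protein, had medians of 6.81 and 118 CPM.

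Without the 9-month male D12 replicate 2, 24 members rose in place of 11. Other single libraries moved the count by over 1.5 times, to 18 without female naive replicate 3, to 7, 5 and 6 without female D12 replicates 2 and 3 and male D12 replicate 3, and to 5 and 1 without male naive replicates 1 and 2. DESeq2 gave 3 and no filter on low counts 38. Contrasts of females or males alone, within the same fit of both sexes, gave 3 and 1.

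At 18 months D12 against naive, 10 of the 42 rose and none fell, against 2.31% of 11907 genes that rose. The median log2 fold change was 3.29 and all 42 values were positive. Against no change 33 passed, beside 8.94% of all genes. The genes that rose at both 9 and 18 months were Cdk1, Cenpa, Cenpe and Kif2c, 36.4% of the 9-month and 40% of the 18-month list.

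In the checkpoint 2 of 4 genes rose at 18 months. Mad2l1, which blocks Cdc20 until chromosomes are attached, lay at 2.05 to 9.30 CPM in naive libraries (median 6.48) and 6.27 to 79.2 CPM at D12 (median 53.3). It rose by 2.91 ± 0.492 (adjusted p = 0.00539), and Bub1, a kinase of the checkpoint, by 3.83 ± 0.95 (adjusted p = 0.0454). Bub1 lay at 0 to 6.67 CPM in naive and 0 to 2.89 CPM in D28 libraries. It met the filter on low counts only through its D12 libraries. The 2 lowest D12 libraries of Mad2l1, at 6.27 and 10.9 CPM, were the female libraries that stood apart. Of the passenger complex, which corrects attachments, the kinase Aurkb had the smallest p of the set, with 0 to 3.17 CPM in naive libraries (median 1.48) against 1.04 to 57.4 CPM (median 22) and a log2 fold change of 4.29 ± 0.769 (adjusted p = 0.00435).

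Kinetochore genes again gave 3 of 8 at 18 months: Cenpe (4.14 ± 0.801, adjusted p = 0.00843), Cenpa (3.86 ± 0.891, adjusted p = 0.0297) and Knl1, the scaffold on which checkpoint proteins gather (3.94 ± 0.928, adjusted p = 0.0325). Cenpe lay at 0 to 11.6 CPM in naive libraries (median 2.23) and 6.33 to 137 CPM at D12 (median 84.6). Among motors Kif2c rose by 3.33 ± 0.639 (adjusted p = 0.0113) and Kif11, which pushes the poles apart, by 3.99 ± 0.928 (adjusted p = 0.0304). Kif11 lay at 0 to 3.71 CPM in naive and 0 to 2.4 CPM in D28 libraries. Like Bub1, it met the filter on low counts only through its D12 libraries. Cdk1 rose by 3.37 ± 0.685 (adjusted p = 0.0164), from a median of 5.19 to 81.7 CPM, and Racgap1, which acts in cytokinesis, by 3.18 ± 0.699 (adjusted p = 0.0288). Spc25 again had the largest p, with a log2 difference of 0.87. No gene of chromosome structure or of the ubiquitin ligases passed, although the median of the ubiquitin ligase genes was 3.73.

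Without the 18-month female D12 replicates 1 and 2 together, a choice made after seeing the data, 29 members rose in place of 10. Without replicate 1 alone it was 19, and with no filter on low counts 29. The count fell to 4, 5, 5, 5, 6, 6 and 6 without female naive replicate 3, female D12 replicate 4, male D12 replicates 1 and 2, female D12 replicate 3, and male naive replicates 1 and 4, and females or males alone gave 0 and 5.

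**Figure D3:**
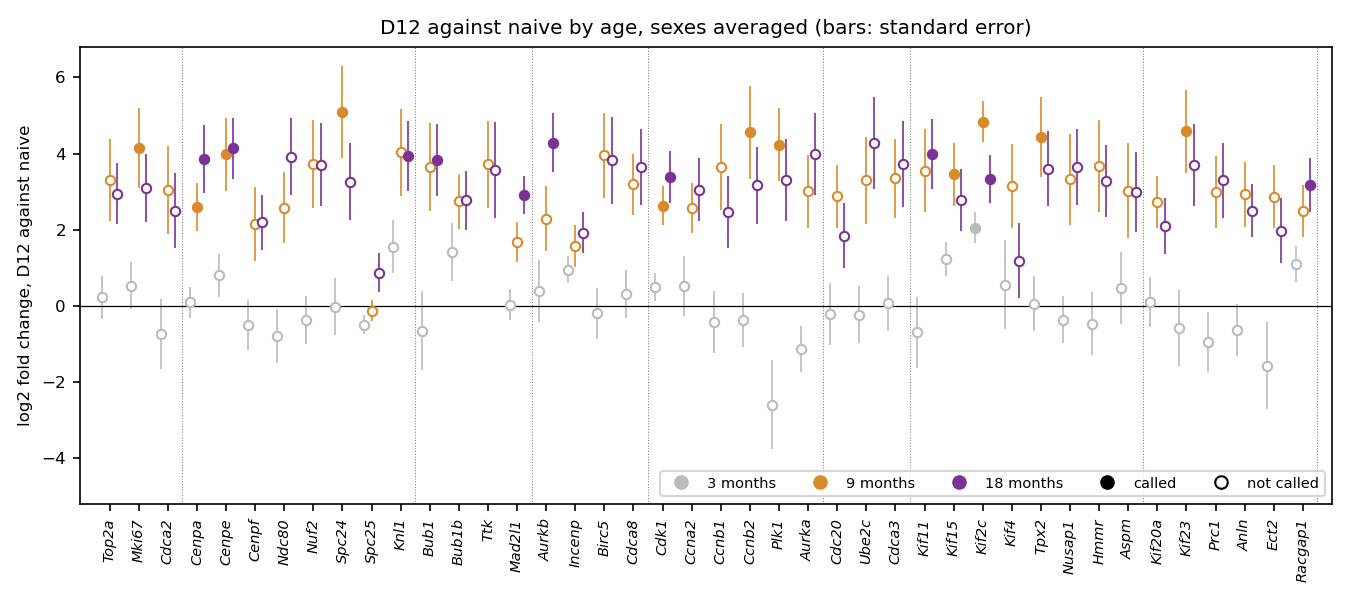
Log2 fold change at D12 against naive (vertical axis) of each of the 42 genes (horizontal axis, ordered by role) at 3, 9 and 18 months, with standard errors as bars and filled points where the test against a change of 1 passed. The filled points number 1, 11 and 10 at the 3 ages, and the 3-month Plk1 point depends on the prior count because all D12 females are at 0.

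At 3 months D12 against naive, 1 of 41 members tested rose, against 3.19% of 12002 genes. Ttk was too low to be tested. The median log2 fold change was -0.02, with 20 values above and 21 below 0, and 2 genes had an unadjusted p under 0.05. The gene that rose was Kif2c, at 5.35, 5.67, 7.41 and 8.10 CPM in naive females, 0.422, 1.73 and 4.20 CPM in naive males, 7.34, 8.07, 9.81 and 22.4 CPM in D12 females and 11.1, 15.9, 28.3 and 32.9 CPM in D12 males. Males did not overlap, and in females the lowest 2 D12 libraries lay inside the naive range. Its log2 fold change was 2.05 ± 0.406 (edgeR adjusted p = 0.0326). DESeq2 did not call it, and the call was lost without any of female D12 replicate 3, female naive replicates 1 and 2, male D12 replicates 3 and 4, and male naive replicates 2 and 3. Knl1 gave 1.56 (adjusted p = 0.83), and Mad2l1 had the largest p with 0.03. Plk1 was at 0 in all 4 D12 females. With 3 counts over that group, its log2 difference from naive was -1.49, a bound on its size.

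The sexes stood apart at 3-month D12. Female scores were 0.75, 0.94, 2.02 and 2.24, and male scores 2.91, 3.03, 3.11 and 3.75, with no overlap. Against naive of the same sex the difference was -0.82 in females and 1.38 in males, and both overlapped naive. Within the first collection day, with 1 female and 3 male D12 libraries, the differences were 0.23 and 0.36, and within the second, with 3 and 1, they were -1.37 and 1.65. In these differences from naive the sexes were close on the first day and apart on the second. The first-day D12 scores themselves were 2.24 in the female and 3.11, 3.03 and 3.75 in the males. That day held 1 male naive library, at 2.93, and 2 female naive libraries, at 3.42 and 0.61. Top2a lay at 5.05, 5.68, 7.74 and 10.8 CPM in D12 females and 18.1, 21.5, 25.1 and 33.1 CPM in D12 males. When the difference in response between the sexes was tested, no member of 41 passed by edgeR at an adjusted p under 0.1, against 0.0583% of all genes. All 41 values were higher in males, with a median of 2.55, and 16 had an unadjusted p under 0.05. The smallest p was that of Racgap1 (3.51 ± 0.947, adjusted p = 0.29). DESeq2 called 1 member, and edgeR 1 without female naive replicate 2 and 12 with no filter on low counts. Nuf2, a subunit of the Ndc80 complex, gave 4.15 (adjusted p = 0.38) and Incenp 0.01.

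At the older ages no sex difference in response passed either. At 9 months no member of 42 did, against 0.00809% of all genes, with 25 values lower in males, a median of -0.29, 2 at an unadjusted p under 0.05 and 1 call with no filter on low counts. At 18 months none did, against 0% of all genes, with 34 values higher in males, a median of 0.94 and 1 at an unadjusted p under 0.05. DESeq2 called none at either age. In score, D12 minus naive was 3.81 in females and 2.29 in males at 9 months, and 2.04 and 3.45 at 18 months. Within the first and second collection day these were 5.04 and 3.20 in 9-month females, 1.45 and 3.54 in 9-month males, 1.14 and 3.49 in 18-month females and 4.91 and 2.31 in 18-month males, positive in all. The 9-month females and the 18-month males did not overlap naive, and the other sex at each age held the libraries that stood apart.

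Ages were then compared at the same day, again by quasi-likelihood, with calls at an adjusted p under 0.1. Between 9 and 3 months at D12, 30 of 42 members were higher and none lower, against 1.71% of 11741 genes that were higher. The median log2 difference was 2.72 and 41 had an unadjusted p under 0.05. Ccna2, the cyclin of S phase and early mitosis, lay at 0.28, 2.85, 4.48 and 5.16 CPM in 3-month females, 5.09, 6.30, 6.43 and 6.68 CPM in 3-month males, and 3.13 to 60.8 CPM at 9 months (median 34.9). Its difference was 2.90 ± 0.51 (adjusted p = 0.0205). Kif11 gave 3.75 ± 0.766 and Bub1b 2.12 ± 0.448, both at an adjusted p of 0.033. Plk1, at 0 in all 3-month D12 females, was higher by at least 4.54 on the log2 scale with 3 counts over that group (adjusted p = 0.033).

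All 6 cytokinesis genes and all 3 ubiquitin ligase genes were higher at 9 months, with 5 of 6 kinases and cyclins, 5 of 8 kinetochore genes, 5 of 8 motors, 3 of 4 checkpoint genes, 2 of 3 chromosome structure genes and 1 of 4 passenger genes. The 12 that did not pass were Aurkb, Cdca2, Cdca8, Cdk1, Incenp, Kif15, Kif2c, Kif4, Knl1, Mad2l1, Nuf2 and Spc25, the last with the largest p (0.26 ± 0.296, adjusted p = 0.795). The count was 39 without the 9-month male D12 replicate 2. It was 16, 18 and 17 without 3-month female D12 replicate 4 and male D12 replicates 1 and 4, 14, 6, 10 and 18 without 9-month female D12 replicates 2 and 3 and male D12 replicates 1 and 3, 14 with all ages and days in one fit, and 0 in males alone.

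Between 18 and 3 months at D12, 25 of 42 were higher, against 1.36% of all genes, with a median of 2.58 and 39 at an unadjusted p under 0.05. Of the 30 and 25 genes, 23 were shared, 76.7% and 92% of the lists. The 2 age comparisons share the 3-month libraries. Aurka, the spindle pole kinase, gave 3.61 ± 0.752, Cenpf, a large kinetochore protein, 2.95 ± 0.617 and Ccna2 2.38 ± 0.506, each at an adjusted p of 0.0401. Reads in bases that Aurka and Ccna2 share with the overlapping genes Cstf1 and Exosc9 cannot be told apart, because the libraries keep no strand. Other members overlap annotated genes too, among them Nusap1 (Oip5), Prc1 (Rccd1), Cdc20 (Elovl1) and Kif20a (Brd8 and Cdc23). All 6 kinases and cyclins were higher, with Plk1 by at least 3.71. Incenp had the largest p (0.01). The count was 40 without the 18-month female D12 replicates 1 and 2. It was 0 without any one of 18-month female D12 replicate 4, male D12 replicates 1 and 2, 3-month female D12 replicate 3 and male D12 replicate 1, 10 and 4 without 3-month female and male D12 replicate 4, and 0 in either sex alone.

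In naive retinas no member differed with age by edgeR, against 0% of all genes between 9 and 3 months and 0.0651% between 18 and 3 months. In each comparison 36 of 42 values were lower at the older age, with medians of -0.73 and -0.75, none had an unadjusted p under 0.05 and DESeq2 called none. The smallest p values were those of Ccnb2 at 9 months (-1.87) and Cdk1 at 18 months (-1.08), both at an adjusted p of 1. At D28 no member of the 38 tested differed either, against 0% and 0.22% of all genes, with 5 and 2 at an unadjusted p under 0.05 and none by DESeq2. With no filter on low counts 2 were higher at 9 months. Kif4, Plk1, Ttk and Kif11 were too low to test there. Ect2, which starts the cleavage furrow, gave 3.13 at 9 months (adjusted p = 0.954).

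Whether the response from naive to D12 itself differed with age was tested in one fit of all 62 libraries in 18 groups. Between 9 and 3 months no member passed by edgeR, against 0.0294% of 13584 genes that were higher. All 42 values were positive with a median of 3.34, and 33 had an unadjusted p under 0.05. DESeq2 called 1, and edgeR 31 with no filter on low counts. Kif2c gave 2.79 ± 0.777 (adjusted p = 0.38), Spc24 5.13 ± 1.59 (adjusted p = 0.448) and Spc25 0.38. Between 18 and 3 months 1 member passed, against 0.0663% of all genes, with 42 positive values, a median of 3.28 and 34 at an unadjusted p under 0.05. It was Mad2l1, by 2.86 ± 0.681 (adjusted p = 0.0698), which at 3 months lay at 4.64 to 23.3 CPM in naive libraries (median 9.71) and 3.10 to 24.4 CPM at D12 (median 11.9). The smallest of the other p values were those of Cenpa (3.75 ± 0.935) and Aurka (5.12 ± 1.28), each at an adjusted p of 0.105, and Kif4 had the largest p (0.61). The call on Mad2l1 was lost, at log2 differences of 2.46 to 2.84, without any one of 3-month female naive replicate 4, male naive replicate 1, female D12 replicates 2 and 3 and male D12 replicates 1 and 4, and 18-month female naive replicate 1, male naive replicates 2 and 4, female D12 replicate 4 and male D12 replicates 1 and 2. DESeq2 called 5 members, 34 passed with no filter on low counts, 0 in uncorrected counts, 16 without 18-month female naive replicate 2, and 17 without the 18-month female D12 replicates 1 and 2. The naive libraries of each age enter these tests, so they are not independent of the comparisons above.

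At D28 no member passed against a change of 1 at 3 months, against 1% of all genes called in either direction, at 9 months, against 0.752%, or at 18 months, against 0.521%. At 3 months 39 of 41 values were below 0, with a median of -1.57, and 13 had an unadjusted p under 0.05. Against no change 5 were lower than naive, beside 2.04% of all genes. Nuf2 lay at 2.16 to 20.1 CPM in naive libraries (median 2.57) and 0 to 2.37 CPM at D28 (median 0.461), a log2 difference of -3.62 ± 0.827 with an adjusted p of 0.0527 against a change of 1 and 0.00499 against none. Hmmr, a spindle protein, gave -4.03 and Ccnb2 -2.84 (adjusted p = 0.218 and 0.324). Racgap1 had the largest p (-0.06). At 9 and 18 months the medians were 0.02 and -0.45, and 2 and 3 members had an unadjusted p under 0.05. DESeq2 called none at any age. With no filter on low counts edgeR called 7 at 3 months, all lower, and 1 at 9 months, which was higher. In edgeR 1 member passed at 3 months without any one of female naive replicates 2 and 3, female D28 replicate 2 and male D28 replicate 1, 1 at 9 months without female naive replicate 3 or male naive replicate 2, and 1 at 18 months without female naive replicate 2.

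Kif2c departed from the rest at D28. At 9 months it lay at 5.51 to 15.6 CPM (median 7.04) against 0 to 4.25 CPM in naive libraries, and at 18 months at 7.65 to 25.5 CPM (median 17.3) against 0 to 5.19 CPM, without overlap at either age. Its log2 differences were 2.58 ± 0.503 (adjusted p = 0.0512 against a change of 1, 0.00457 against none) and 2.51 ± 0.627 (adjusted p = 0.21 and 0.0238). At 3 months D28 it lay at 3.50 to 13.8 CPM (median 5.46), overlapping naive. Kif4 was at 0 in all 18-month female D28 libraries. Among the other members at D28, Cdc20, the activator of cyclin destruction, gave -2.67 (adjusted p = 0.863) at 18 months and Mki67 had the largest p (-0.03).

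**Figure D4:**
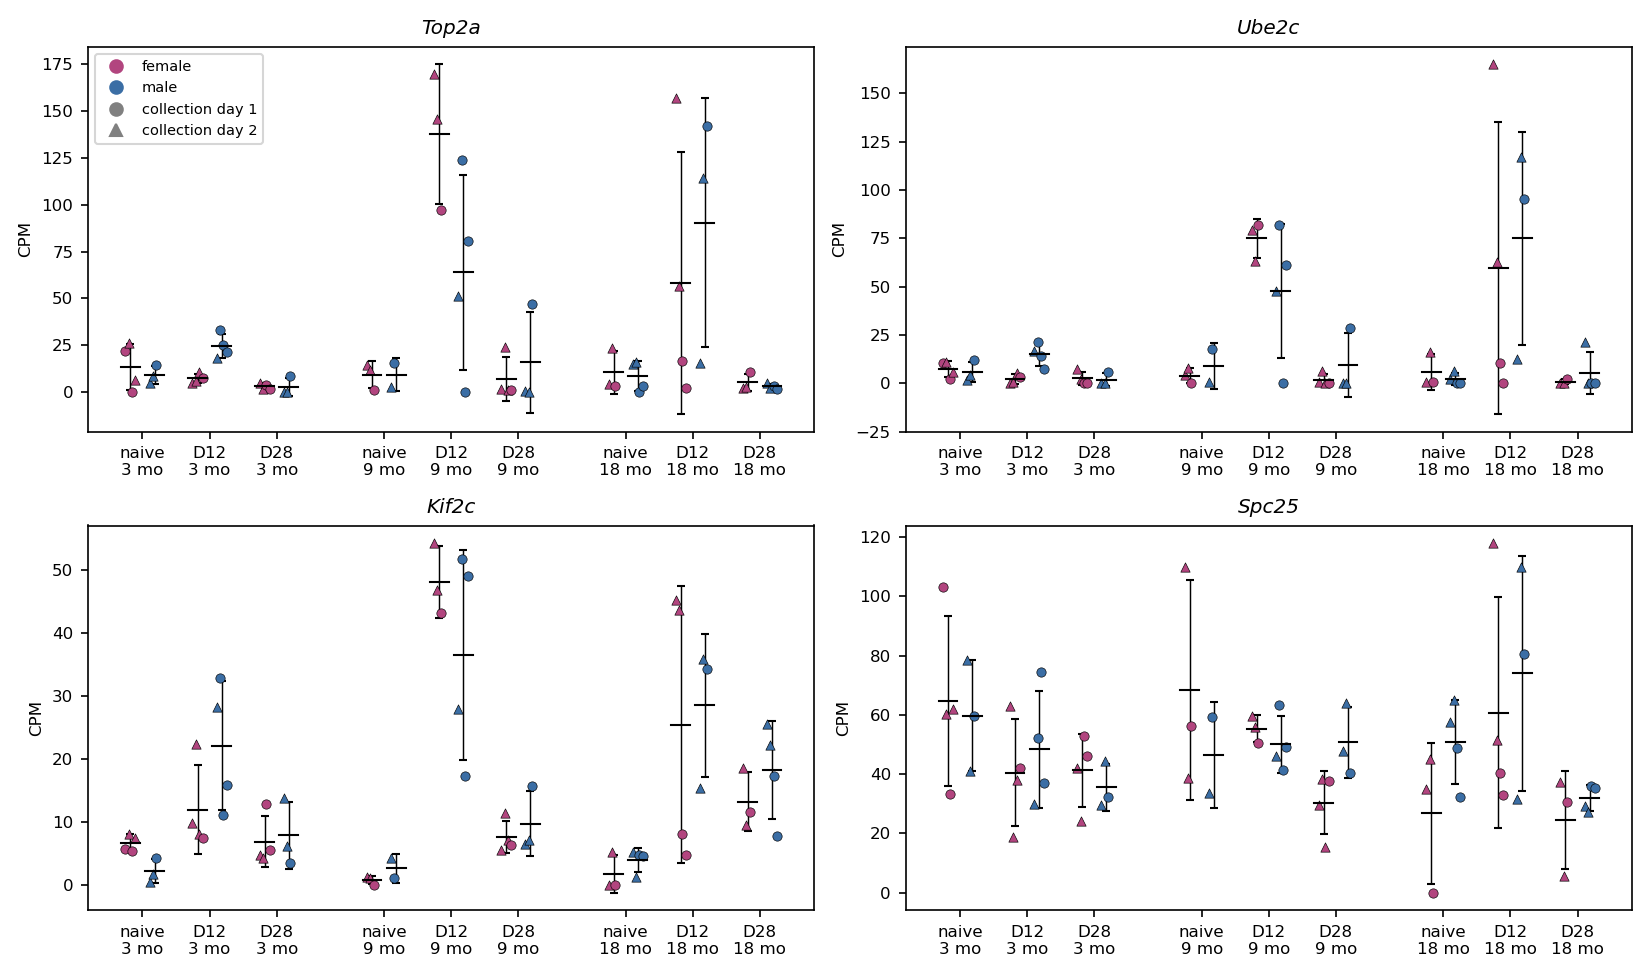
CPM of Top2a, Ube2c, Kif2c and Spc25 in each library (vertical axes) by age and by naive, D12 and D28 (horizontal axes). Kif2c D28 libraries at 18 months lie at 7.65 to 25.5 CPM, above all naive ones, most Top2a and Ube2c libraries return to the naive range, and Spc25 overlaps between naive and D12 at every age.

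The members moved together from library to library. Over the 62 libraries the median Pearson r between pairs of members was 0.719 over 861 pairs (range 0.077 to 0.947), as a description, since the libraries share groups and depth. Against the mean of the others, 30 members had r over 0.8. Ube2c (0.950), Cdca3 (0.940) and Nusap1 (0.937), the last of which bundles spindle microtubules, tracked the set most closely. Spc25 (0.392), Kif2c (0.583) and Incenp (0.631), the scaffold of the passenger complex, tracked it least. Among genes on none of the lists used here, Stmn1 (0.902), Pclaf (0.898), Neil3 (0.888), Cdkn3 (0.884), Cks1b (0.871), Stil (0.854), Brca1 (0.840), Arpc2 (0.825), Hmgb2 (0.821) and Trim59 (0.819) had the highest r of 13584 genes. Of the first 60 genes by r, 30 were members, 16 were other mitosis genes and none was on the DNA replication list. This ranking was by r with the full score, which contains each member's own level. The high ranks of members are therefore partly set in advance, and their number is no independent sign that the set moved together.

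Other parts of the cell cycle were read from lists that are not independent of these data. Of 69 other mitosis genes tested, 12 rose at 9-month D12, and 7 of 65 at 18 months and 1 of 59 at 3 months, against 2.83%, 2.31% and 3.19% of all genes, with median log2 differences of 2.53, 2.37 and 0.01. At 9 months they included Spag5 (5.58) and Cep55 (4.66), which acts in the last step of cytokinesis, and Ska1, which was at 0 in all naive libraries and had a median of 9.81 CPM at D12. At 18 months they included Shcbp1 (5.11 ± 0.956, adjusted p = 0.00479), Ncapg (4.17), a condensin subunit, and Psrc1, at 0 in all naive females. At 3 months the gene was Psrc1 (2.73 ± 0.668, adjusted p = 0.0365). DNA replication genes gave 0 of 37, 1 of 40 (Uhrf1, 5.01 ± 1.25, adjusted p = 0.0287) and 1 of 40 (Tk1, 2.72 ± 0.494, adjusted p = 0.0115) at the 3 ages, with medians of -0.03, 0.83 and 1.29. These counts were near the shares of all genes that rose. Between ages at D12, 16 of 40 replication genes were higher at 9 than at 3 months and 7 of 40 at 18, against 1.71% and 1.36% of all genes.

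Inhibitors of the cell cycle changed in both directions. Cdkn1c, which blocks cyclin-dependent kinases, fell at D12 at every age, from 10.5 to 27.2 CPM in naive libraries (median 11.3) to 0 to 4.52 CPM at 3 months, from 8.65 to 35.7 CPM to 0 to 5.49 CPM at 9 months and from 6.14 to 31.5 CPM to 0 to 2.61 CPM at 18 months, without overlap at any. Its log2 differences were -3.01 ± 0.524, -3.21 ± 0.652 and -4.34 ± 0.658 (adjusted p = 0.00187, 0.0119 and 0.00102). Cdkn1a, the p53 target, rose at 3 months (2.44 ± 0.332, adjusted p = 0.000389) and 18 months (2.53 ± 0.428, adjusted p = 0.00895), and at 9 months gave 1.56 (adjusted p = 0.366). Of G1 cyclins and kinases, none of 9 passed against a change of 1 at 3 months. Ccnd2 rose at 9 months (2.97, adjusted p = 0.0313) and Ccne1 at 18 months (5.27, adjusted p = 0.00899). Of all genes 3.19%, 2.83% and 2.31% rose at the 3 ages, and counts in so short a list cannot be set apart from these shares. Against no change, 1 of the 9 was higher and 1 lower at 3 months. Among transcription factors Myc fell at 3 months (-2.26, adjusted p = 4.02e-05), and Foxm1, an activator of mitosis genes, gave -0.17, 3.46 and 1.84 at the 3 ages without passing. No anaphase promoting complex subunit of 17 passed against a change of 1 at D12 at any age. Of all genes, 4.64% passed in either direction at 3 months and 3.93% at 9 months. Against no change, 2 of the subunits were higher at 3 months and 1 at 9 months.

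Markers of other cell types moved with D12. All 13 T cell markers had a higher median at D12 than naive over the 9- and 18-month libraries, and their summed level was 0 to 9.86 CPM in naive and 70.0 to 199 CPM in D12 libraries at 9 months, and 0.748 to 212 and 6.27 to 523 CPM at 18 months. Cd3e was at 0 in 1 of 14 D12 and 10 of 12 naive libraries. At 3-month D12 the T cell sum was 85.2, 169, 87.8 and 86.9 CPM in females, with scores of 2.24, 2.02, 0.94 and 0.75. In males of that age and day it was 472, 334, 332 and 83.8 CPM, with scores of 3.11, 3.03, 3.75 and 2.91. At 9-month D28, where the median score was 0.70, the T cell sum was 31.8 to 247 CPM. Its highest value was in female replicate 3, with a score of 3.01. In the 9-month male D12 replicate 2, with a score of 0.45, it was 133 CPM. In the 18-month female D12 replicates 1 and 2, with scores of 0.41 and 2.34, it was 6.27 and 15.3 CPM, against 228 to 523 CPM in the other 5. Of 5 NK cell markers 4 were higher, of 11 monocyte and neutrophil markers 6, with Ly6g at 0 in all 26 libraries, and of 5 B cell markers none. Monocyte and neutrophil sums reached 1090 CPM in the 18-month female D12 replicate 4, the library with the highest mitosis score.

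The labelled cell type was checked in the same way. All 11 microglia markers were detected in every one of these 26 libraries, and 10 of the 11 had a lower median at D12, P2ry12 at 995 against 6610 CPM, while Aif1 was higher. Microglia sums were 33300 to 54000 CPM in 9-month naive and 12200 to 32100 CPM in 9-month D12 libraries, and 18900 to 26900 CPM at 3-month D12. Of 10 photoreceptor markers 1 was higher at D12, of 6 glial markers 4 and of 5 vascular markers 2. Totals were 1806687 and 1872076 counts in the 2 D12 libraries with the lowest scores of the older ages, among the shallowest of their groups. The part of other cells, marker loss and depth in the mitosis result was not tested.

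**Figure D5:**
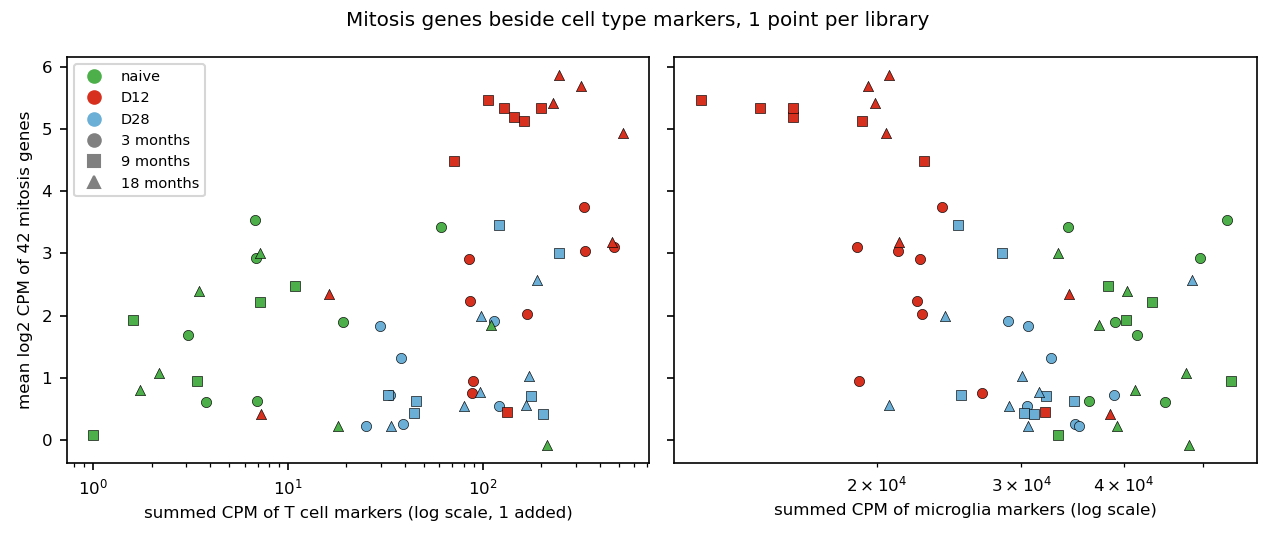
Mitosis score (mean log2 CPM, vertical axes) against the summed CPM of microglia markers and of T cell markers (horizontal axes) in each library, by age and day. The 3 low-scoring D12 libraries of the older ages lie at microglia sums of 32100 to 38500 CPM, and 3-month D12 libraries have T cell sums of 83.8 to 472 CPM with scores of at most 3.75.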

How the data were processed

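RNA of sorted retinal microglia was amplified with SMART-Seq v4 and sequenced single-end without strand. Per the labels and methods, the authors used bcl2fastq 2.20, STAR 2.7.8a (mm10), featureCounts and R 4.2.2, and adjusted the counts for collection day with ComBat_seq. The deposited tables hold whole counts per gene, 64 libraries uncorrected and 63 corrected, with uncorrected totals of 1450718 to 10056878 (median 4372691.5) in the 62 libraries used. Every value here starts from the corrected counts unless stated. One 9-month male D28 library has no corrected column, and one 18-month female D28 library was left out by the rule that defined the set. Columns of samples outside the labels numbered 0.

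CPM used TMM library sizes. Low genes were dropped with filterByExpr on the groups of each fit, so that a gene could enter a test through the group where it is high. Quasi-likelihood models were fitted by edgeR 4.0.16 in R 4.3.3 to the groups of sex with day or age. Days were tested with glmTreat, with 1 as the log2 fold change to exceed, at an adjusted p under 0.05, and ages and differences in response by glmQLFTest at an adjusted p under 0.1, all adjusted over every gene tested. DESeq2 1.42.0 was an alternative. ComBat_seq adjusts counts toward a common level per day, so that small counts depend on it, and uncorrected counts were an alternative for this reason. A gene at 3 counts in a library is taken as the floor, which covers counting error only, since amplified reads are not independent molecules. Each library came from 1 retina, and per the methods the other eye went to flow cytometry or staining, so that libraries stand for separate mice.

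The members, roles, other gene lists and markers were chosen with earlier results of these data known. In each comparison the genes named are the 3 with the smallest p, the one with the largest p, the genes called, the most abundant of a role and genes outside the rule named for their levels. The models were tested on simulated counts with 200 changed genes, drawn at random from all genes tested. A log2 change of 3 was recovered for 75.5% (9-month D12, 12364 genes, 1 false call), 93.5% (9 against 3 months at D12, 11741 genes, 18 false calls) and 76% (difference in response, 13584 genes, 18 false calls). Replicate numbers were checked for pairing: after removal of group means, the mean correlation was -0.0114 over 464 pairs with the same number and 0.00408 over 1348 others, so no pairing was used. Motifs were searched in RefSeq promoters of GRCm38.p6, the assembly that mm10 names. Promoters of Incenp, Aurkb, Ccna2, Cdca2, Kif20a, Tpx2 and Spc24 were not used here.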

Additional observations from a re-analysis of the deposited data

Results flagged for a closer look

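In the score of the 42 mitosis genes, 2 of 18 sets of libraries held a library whose gap to the nearest other exceeded Dixon's 95% value. For a single set, chance gives about 1 in 20. The sets are not independent, because those of a single sex lie inside those of both sexes. Among the 4 libraries of 9-month D28 females, replicate 3 had a score of 3.01 and the others 0.42, 0.70 and 0.72. Among the 7 libraries of 9-month D12, male replicate 2 had a score of 0.45 and the others 4.48 to 5.46. It had 1806687 counts, 21 members at 0 and a microglia sum of 32100 CPM.

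The response of Mad2l1 to D12 differed between 18 and 3 months by the test of the difference itself, with a log2 difference of 2.86 ± 0.681 (edgeR adjusted p = 0.0698). The call was lost without any one of 12 libraries, and in uncorrected counts with and without collection day in the model (adjusted p = 0.12 and 0.194). The 18-month female D28 replicate 1, outside the comparisons by rule, had a score of 5.31 in the uncorrected counts, over 1852783 counts. The 7 naive libraries of 18 months scored -0.0755 to 3.04 there (median 0.996).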

How the results depend on the processing

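No called member changed direction in any alternative. Over 78 member calls, 433 of 1141 combinations with 1 library left out lost the call, and 282 of 795 with another setting. Score differences kept their direction or moved by less than 1 SD in every other setting. Within the first collection day alone the D28 differences at 9 and 18 months, sexes weighted equally, lay above 0. The cause of a change was not tested where the setting does not show it by its construction.

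Counts of members called that moved by over 1.5 times were as follows. DESeq2 size factors gave 1 for 9-month D28. With no filter on low counts, 7 were called at 3-month and 1 at 9-month D28, 38 at 9-month and 29 at 18-month D12, 2 for 9 against 3 months at D28, 31 and 34 for the response at 9 and 18 against 3 months, and 12 and 1 for the sexes at 3 and 9 months. DESeq2 gave 0 at 3-month and 3 at 9-month D12, 1 and 5 for the response with age and 1 for the sexes at 3 months. Uncorrected counts gave 13 for 18 against 3 months at D12 and 0 for its response with collection day in the model, and without it 0, 5 and 6 at D12 for the 3 ages, 8 and 1 for 9 and 18 against 3 months at D12 and 0 for the 18-month response. With the replicate block, where numbers share no label beyond the number, 0 and 7 were called at 3- and 9-month D12, 15 for 18 against 3 months and 0 for its response. Against no change, D12 gave 2, 32 and 33 and D28 5, 1 and 1 at the 3 ages. One fit of all libraries gave 0 at 3-month D12 and 14 and 16 for 9 and 18 against 3 months. In contrasts of 1 sex, taken from fits of both sexes, females alone gave 0, 3 and 0 at D12 for the 3 ages. They also gave 0 for 18 against 3 months and 3 and 2 for the responses. Males alone gave 1 and 5 at 9- and 18-month D12 and 0 for both ages at D12 and for the 18-month response. With the library of 2 day labels at D12 the 18-month response gave 5. Without 18-month female D12 replicates 1 and 2, added after seeing the data, D12 gave 29, 18 against 3 months 40 and its response 17.

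With 1 library left out, D12 gave 0 to 1, 1 to 24 and 4 to 19 at 3, 9 and 18 months and D28 0 to 1 at each age. Ages at D12 gave 6 to 39 and 0 to 34, the 18-month response 0 to 16, the sexes at 3 months 0 to 1, and the other comparisons 0 to 0. Score differences ran from -0.019 to 0.56, 2.7 to 3.62 and 2.33 to 3.24 at D12, and from -1.40 to -0.819, -0.662 to 0.143 and -0.496 to 0.197 at D28. Depth limits the lowest members: Kif4, Plk1 and Ttk often lay at or under 3 counts.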

Other observations

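Genes that ran against the mitosis score over the 62 libraries included microglial genes. The most negative Pearson r of 13584 genes was that of Trem2 (-0.831), a lipid receptor of microglia, with median levels of 2500 CPM in naive and 820 CPM in D12 libraries at 9 months and of 2580 and 1100 CPM at 18 months. At 3 months its medians were 2120 and 1540 CPM, and at D28 they were 2490, 2420 and 2640 CPM. Dhrs3 (-0.786), a retinaldehyde reductase, and Ifi27 (-0.773), an interferon-induced gene, came next. Dhrs3 medians were 190 and 89.4 CPM at 9 months and 164 and 56.5 CPM at 18 months. These values are descriptions, since the libraries share groups and depth.

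Members left at D28 in single libraries varied. The 9-month male D28 replicate 2 scored 3.46 with 19 members over 10 CPM, and the other corrected male libraries of that group 0.62 and 0.44.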
